A study of Homo sapiens with 15 samples.

Results

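The 70 histone and DNA modifying enzymes described here are the protein-coding genes of the array's annotation whose symbols begin with KMT, KDM, HDAC, SIRT, PRMT, SETD or DNMT, or with KAT or TET followed by a digit. KDM5D was left out, and the 70 are part of 14812 genes tested. They were sorted by symbol prefix into classes named after the usual role, which not every member has. These were 13 lysine methyltransferases, 18 lysine demethylases, 7 acetyltransferases, 11 zinc-dependent deacetylases, 7 sirtuins, 8 arginine methyltransferases and 6 DNA methyltransferases and dioxygenases. KMT2A, KMT2E, KAT6A, SETD1B, SETDB1 and TET3 were not analysed here.

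Transcript levels were measured on Affymetrix whole-transcript arrays in MV4-11, an established human acute myeloid leukemia line with a KMT2A-AFF1 fusion gene and a duplication within FLT3. OTX015 (birabresib), DW71177 and DW71374 were each given at 300 nM and RVX208 (apabetalone) at 5 uM, and the vehicle DMSO was the control. All were given for 24 h, with 3 arrays in each of the 5 groups and 15 in all. The title of the deposited series calls the compounds BET inhibitors. OTX015 is known to bind both bromodomains of the BET proteins whereas RVX208 prefers the second, and for DW71177 and DW71374 the labels give code names alone. The wells were treated in triplicate in a single line, and the labels do not say whether they were separate cultures, so p-values reflect the spread of these 15 arrays alone, part of which may be technical.

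Chromatin enzymes are commonly grouped as writers, which add acetyl or methyl groups to histones or DNA, and erasers, which remove them. The acetyl marks on histone tails are what the bromodomains of BET proteins bind, so the acetyltransferases and deacetylases set the marks that BET inhibitors keep from being read. Several of the enzymes also act on proteins other than histones. Leukemias with a KMT2A fusion depend on a number of them, among them the menin-bound KMT2 complexes and the demethylase KDM1A.

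Values are deposited log2 signals, so a difference of 1 is a doubling on the scale of the array. They cannot be ranked between genes, because each gene is read by probes of its own. Array medians lay between 3.72 and 3.79, and arrays of one group correlated at 0.992 to 0.995 across genes. Of the 70 genes, 59 lay above the median gene level of 4.74 over the 15 arrays. The signal that counts as background is not given in the sources used here, so a fold is read as a lower bound at best where a group mean lay under 5. Of 10 markers of acute myeloid cells 7 were measured. Over the 15 arrays they averaged 10.5 (LYZ), 9.80 (FLT3), 7.60 (SPI1), 7.05 (MEIS1), 6.43 (CSF1R), 4.33 (MPO) and 3.84 (ANPEP). Their mean level was 6.85 to 6.91 in the OTX015 arrays, 6.89 to 6.94 with DW71177, 7.05 to 7.07 with RVX208 and 7.26 to 7.32 with DW71374, against 7.21 to 7.28 with DMSO. The only measured lymphoid marker of 6 listed was NKG7, at 6.15 to 6.46 with OTX015, 6.57 to 6.70 with DW71177, 6.82 to 6.92 with RVX208 and 7.21 to 7.43 with DW71374, against 7.42 to 7.54 with DMSO. The 2 erythroid and megakaryocytic markers measured of 5 averaged 5.00 to 5.41 on every array, and the 4 epithelial and stromal markers measured of 6 averaged 5.42 to 5.62. The last mean covers a wide range over the 15 arrays, with KRT18 at 7.73, VIM at 6.38, KRT8 at 5.24 and EPCAM at 2.72. No listed marker can be read as a level of 0 on an array, and the part of these shifts in the results below was not tested. In a bulk sample fewer cells of one kind and less RNA per cell cannot be told apart.

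The promoters of 5 enzymes with large differences are shown first, because KAT2A and KAT2B moved in opposite directions, PRMT3 and PRMT5 moved together and KDM7A had the largest difference of all. The windows are RefSeq promoters of the build GRCh38.p14, from 250 bases before the annotated start to 50 after it, written 5′ to 3′ on the gene's own strand. Capitals mark matches on either strand to the E-box CACGTG, the GC box GGGCGG or CCGCCC, the CCAAT box CCAAT or ATTGG, the ETS motif CCGGAAG or CTTCCGG, and the TATA motif TATAAA or TTTATA. None of these patterns contains another, and CACGTG reads the same on both strands. KAT2A lies at chr17:42121318-42121617, minus strand, KAT2B at chr3:20040196-20040495, plus strand, PRMT3 at chr11:20387466-20387765, plus strand, PRMT5 at chr14:22929327-22929626, minus strand and KDM7A at chr7:140176934-140177233, minus strand.
KAT2A: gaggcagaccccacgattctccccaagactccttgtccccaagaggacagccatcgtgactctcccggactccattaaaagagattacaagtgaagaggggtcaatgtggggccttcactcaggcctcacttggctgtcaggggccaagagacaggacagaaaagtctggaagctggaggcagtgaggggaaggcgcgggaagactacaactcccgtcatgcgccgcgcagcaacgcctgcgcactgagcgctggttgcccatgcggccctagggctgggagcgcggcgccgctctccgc
KAT2B: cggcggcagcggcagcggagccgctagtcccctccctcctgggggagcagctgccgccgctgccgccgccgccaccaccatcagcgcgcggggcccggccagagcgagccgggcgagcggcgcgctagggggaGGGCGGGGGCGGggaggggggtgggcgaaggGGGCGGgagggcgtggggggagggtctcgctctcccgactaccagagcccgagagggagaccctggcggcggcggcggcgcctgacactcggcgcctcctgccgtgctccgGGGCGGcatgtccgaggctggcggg
PRMT3: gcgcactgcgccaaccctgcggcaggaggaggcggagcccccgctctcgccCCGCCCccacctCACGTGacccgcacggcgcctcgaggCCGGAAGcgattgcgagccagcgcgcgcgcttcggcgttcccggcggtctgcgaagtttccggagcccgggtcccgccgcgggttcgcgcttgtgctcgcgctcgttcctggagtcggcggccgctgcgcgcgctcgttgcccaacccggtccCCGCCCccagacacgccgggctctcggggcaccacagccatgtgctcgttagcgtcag
PRMT5: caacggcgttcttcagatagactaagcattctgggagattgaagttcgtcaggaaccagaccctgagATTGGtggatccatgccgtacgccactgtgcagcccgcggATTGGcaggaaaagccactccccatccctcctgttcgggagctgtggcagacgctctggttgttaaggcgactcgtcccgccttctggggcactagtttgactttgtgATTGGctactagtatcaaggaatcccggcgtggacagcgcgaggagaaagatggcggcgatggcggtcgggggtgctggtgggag
KDM7A: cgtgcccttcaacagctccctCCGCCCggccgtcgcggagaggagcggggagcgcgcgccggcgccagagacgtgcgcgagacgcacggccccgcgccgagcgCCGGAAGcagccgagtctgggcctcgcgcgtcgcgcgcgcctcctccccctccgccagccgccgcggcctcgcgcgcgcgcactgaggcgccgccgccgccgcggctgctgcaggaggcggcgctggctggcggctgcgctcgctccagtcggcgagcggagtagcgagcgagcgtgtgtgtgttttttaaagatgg

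The KAT2A window held none of these motifs and had 18 CG dinucleotides, whereas the KAT2B window held 4 GC boxes and 40 CG dinucleotides. The PRMT3 window held 1 E-box, 2 GC boxes and 1 ETS motif, and the PRMT5 window held 3 copies of ATTGG. The KDM7A window held 1 GC box, 1 ETS motif and 56 CG dinucleotides. Windows were found for 65 of the 70 genes, leaving DNMT3L, HDAC5, KAT8, KDM4E and SIRT7. Some genes have several windows, and a gene was counted if any of its windows matched. The 65 genes had 105 windows, and 15843 protein-coding genes had 22199. The shares below were not matched for the number of windows per gene. The E-box, the core letters read by MYC family factors, was in 12 of the 65 (18.5%) and in 10.9% of 15843 protein-coding genes with a window. It was in 5 of 18 enzymes that rose with OTX015 (KDM4B, KDM4C, KDM6A, SIRT1 and TET2), in 1 of 15 that fell (PRMT3) and in 6 of 32 that were not called. The GC box was in 48 of the 65 genes (73.8%, against 64.3% of all) and the ETS motif in 14 (21.5%, against 16.5%). The CCAAT box was in 26 (40.0%, against 42.1%) and the TATA motif in 2 (3.08%, against 12.4%). A match describes letters in the window and shows no binding.

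With OTX015, the comparison that asked what an inhibitor of both BET bromodomains changed in these enzymes, writers and erasers moved in both directions. Of 8 arginine methyltransferases 5 fell, most demethylases that passed the test rose, and the paralogous acetyltransferases KAT2A and KAT2B went opposite ways. Of the 70 genes, 34 passed limma's moderated test at a Benjamini-Hochberg adjusted p under 0.05, where 25.7% of all genes did. The 34 were 19 that rose, where 11.2% of all genes rose, and 15 that fell, where 14.5% fell. Among genes above the median level 35 of the 59 enzymes were called (59.3%), beside 52.4% of all such genes, so the share of brighter enzymes called stood near that of other bright genes. The class shares below are set beside all genes, bright and dim, although most of the enzymes were bright. The OTX015 and DMSO arrays did not overlap for 44 of the 70 enzymes, 24 higher and 20 lower with OTX015, where 36.2% of all genes did not. The median difference of the 70 was 0.018, beside -0.0038 over all genes. Quantile normalization gave 22 that rose and 11 that fell, a split of 66.7% rising against 55.9% as deposited.

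**Figure D1:**
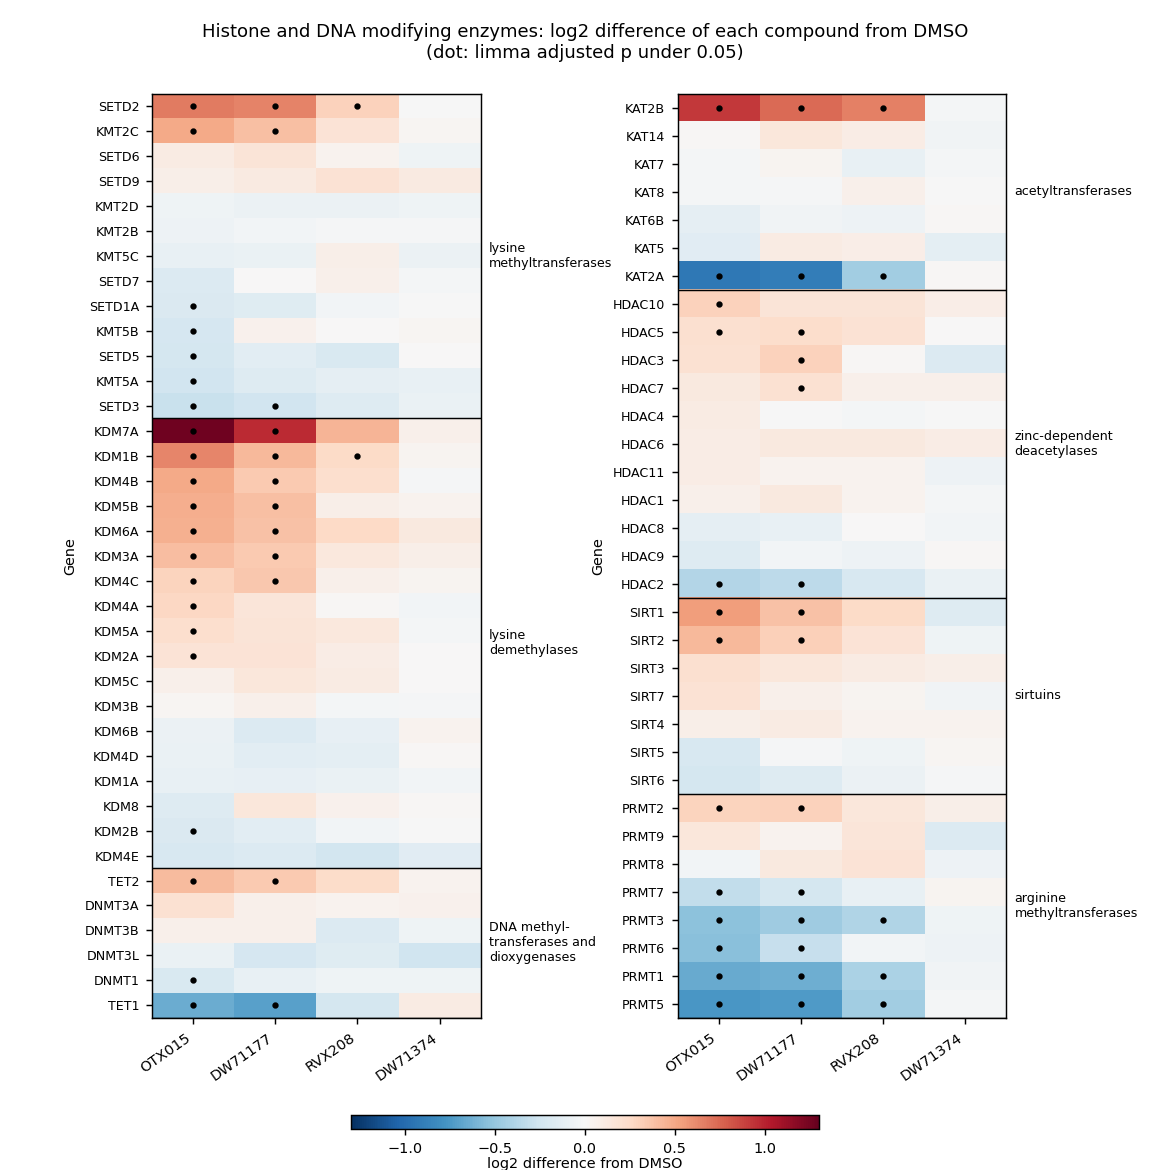
Log2 difference of each compound from DMSO for the 70 enzymes, grouped by class, with columns for the 4 compounds. The colour scale runs from blue (lower with the compound) to red (higher). Dots mark limma adjusted p under 0.05. KDM7A (1.27) and KAT2A (-0.93) are the extremes with OTX015, and the DW71374 column is pale throughout and has no dot.

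**Figure D2:**
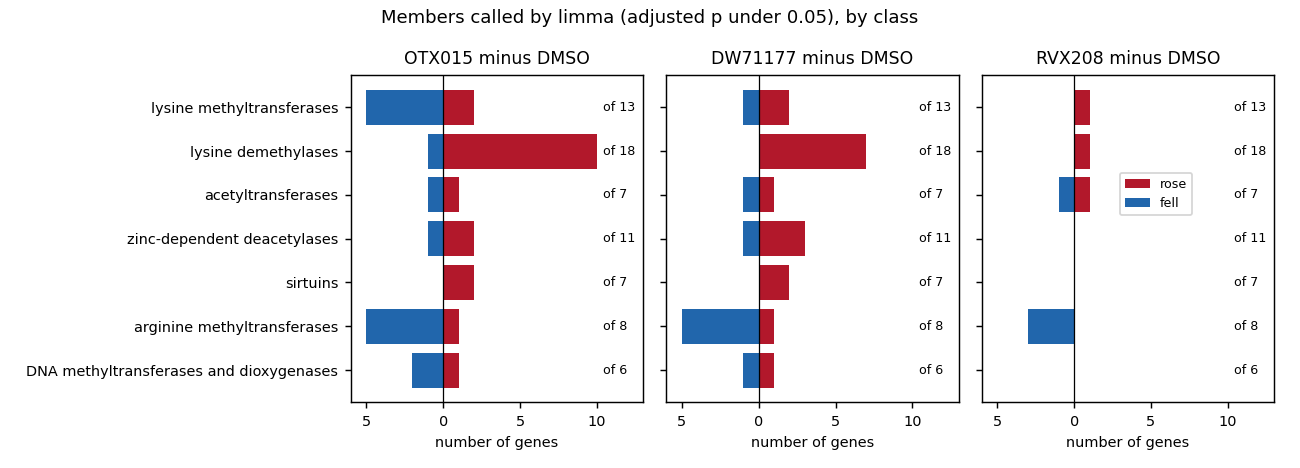
Number of enzymes of each class that rose (red, right of 0) or fell (blue, left of 0) by limma at adjusted p under 0.05, with OTX015, DW71177 or RVX208 minus DMSO. The class size is printed at the right of each bar. Demethylases lie to the right (10 rose with OTX015 and 7 with DW71177) and arginine methyltransferases to the left (5 fell with each).

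The arginine methyltransferases, which methylate arginines of histones, splicing factors and ribosomal proteins, had the lowest class median with OTX015 and with DW71177. With OTX015 5 of 8 fell, 1 rose and the median difference was -0.43, and with DW71177 the counts were the same and the median was -0.26. With RVX208 3 of 8 fell, and with DW71374 none was called. The share called was 75% with OTX015 and with DW71177 and 37.5% with RVX208, beside 25.7%, 19.8% and 6.52% of all genes. PRMT5, the main enzyme of symmetric arginine dimethylation, read 5.93, 5.92 and 6.16 with OTX015, 6.02, 6.17 and 5.89 with DW71177, 6.31, 6.36 and 6.25 with RVX208 and 6.79, 6.73 and 6.68 with DW71374, against 6.73, 6.72 and 6.82 with DMSO. Every OTX015, DW71177 and RVX208 array lay below all DMSO arrays, and the DW71374 arrays overlapped them. PRMT5 was 1.68-fold lower with OTX015 (log2 -0.75 ± 0.081, SE, n = 3 and 3, limma adjusted p = 8.9e-06), and differed by -0.73 ± 0.081 with DW71177 (adjusted p = 2.2e-05) and -0.45 ± 0.081 with RVX208 (adjusted p = 0.0042).

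PRMT1, which makes most asymmetric dimethylarginine, read 4.97, 5.08 and 5.05 with OTX015, 5.05, 5.00 and 5.10 with DW71177, 5.34, 5.19 and 5.28 with RVX208 and 5.70, 5.57 and 5.65 with DW71374, against 5.61, 5.76 and 5.69 with DMSO. The same 9 compound arrays lay below the DMSO arrays and DW71374 did not separate. Its log2 difference was -0.65 ± 0.064 with OTX015 (limma adjusted p = 3.6e-06), -0.64 ± 0.064 with DW71177 (adjusted p = 9.4e-06) and -0.42 ± 0.064 with RVX208 (adjusted p = 0.0015). PRMT3, a cytosolic enzyme that methylates a ribosomal protein, read 6.65, 6.37 and 6.56 with OTX015, 6.59, 6.49 and 6.71 with DW71177, 6.66, 6.72 and 6.63 with RVX208 and 6.92, 6.95 and 7.16 with DW71374, against 6.87, 7.06 and 7.27 with DMSO. Its DMSO arrays spread widely, yet all lay above the OTX015, DW71177 and RVX208 arrays. The differences were -0.54 ± 0.11 with OTX015 (limma adjusted p = 0.0015), -0.47 ± 0.11 with DW71177 (adjusted p = 0.0055) and -0.39 ± 0.11 with RVX208 (adjusted p = 0.04).

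PRMT6, which methylates arginine on the tail of histone H3, read 5.65, 5.94 and 5.77 with OTX015, 5.95, 6.15 and 6.01 with DW71177, 6.32, 6.38 and 6.18 with RVX208 and 6.16, 6.33 and 6.31 with DW71374, against 6.41, 6.39 and 6.19 with DMSO. OTX015 and DW71177 arrays lay below DMSO, while RVX208 and DW71374 overlapped it. PRMT6 fell by 0.55 on the log2 scale with OTX015 (limma adjusted p = 4e-04) and by 0.30 with DW71177 (adjusted p = 0.034). PRMT7, which makes monomethylarginine, fell by 0.32 and 0.23 with the same compounds (limma adjusted p = 0.0029 and 0.031). PRMT2, a nuclear receptor coactivator, was the member that rose, by 0.29 with OTX015 (limma adjusted p = 0.0064) and 0.30 with DW71177 (adjusted p = 0.0068). PRMT8, a membrane-bound enzyme of the brain that was dim here, and PRMT9, which methylates a splicing factor, were not called with any compound.

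Of the 7 acetyltransferases KAT2A fell and KAT2B rose with OTX015, DW71177 and RVX208, and no other member was called with any compound. That was 28.6% of the class with each, beside 25.7% of all genes with OTX015, 19.8% with DW71177 and 6.52% with RVX208, so with OTX015 the class count stood near that of all genes. KAT2A (GCN5) and KAT2B (PCAF) are close paralogs that take the same catalytic place in the SAGA and ATAC coactivator complexes. KAT2A read 6.65, 6.72 and 6.65 with OTX015, 6.51, 6.75 and 6.83 with DW71177, 7.23, 7.01 and 7.21 with RVX208 and 7.61, 7.63 and 7.61 with DW71374, against 7.60, 7.60 and 7.60 with DMSO. The OTX015, DW71177 and RVX208 arrays lay below the DMSO arrays. The DW71374 arrays lay just above the DMSO arrays, the lowest at 7.609 against 7.605 for the highest DMSO array. KAT2A was 1.90-fold lower with OTX015 (log2 -0.93 ± 0.080, limma adjusted p = 1.2e-06), 1.87-fold lower with DW71177 (log2 -0.90 ± 0.080, adjusted p = 3.5e-06) and 1.36-fold lower with RVX208 (log2 -0.45 ± 0.080, adjusted p = 0.004).

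KAT2B read 7.07, 7.04 and 7.06 with OTX015, 6.85, 6.93 and 6.85 with DW71177, 6.78, 6.86 and 6.72 with RVX208 and 6.15, 6.12 and 6.05 with DW71374, against 6.21, 5.99 and 6.21 with DMSO. Here the 9 arrays of OTX015, DW71177 and RVX208 lay above every DMSO array, and DW71374 overlapped it. KAT2B was 1.89-fold higher with OTX015 (log2 0.92 ± 0.067, limma adjusted p = 2.7e-07), 1.67-fold higher with DW71177 (log2 0.74 ± 0.067, adjusted p = 4e-06) and 1.57-fold higher with RVX208 (log2 0.65 ± 0.067, adjusted p = 8.2e-05). The other 5, KAT5 (TIP60), KAT6B (MORF), KAT7 (HBO1), KAT8 (MOF) and the ATAC subunit KAT14, were not called, with differences from -0.15 (KAT5) to 0.015 (KAT14) with OTX015. The class median with OTX015 was -0.023 as deposited and 0.016 after quantile normalization, so it carries no direction.

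**Figure D3:**
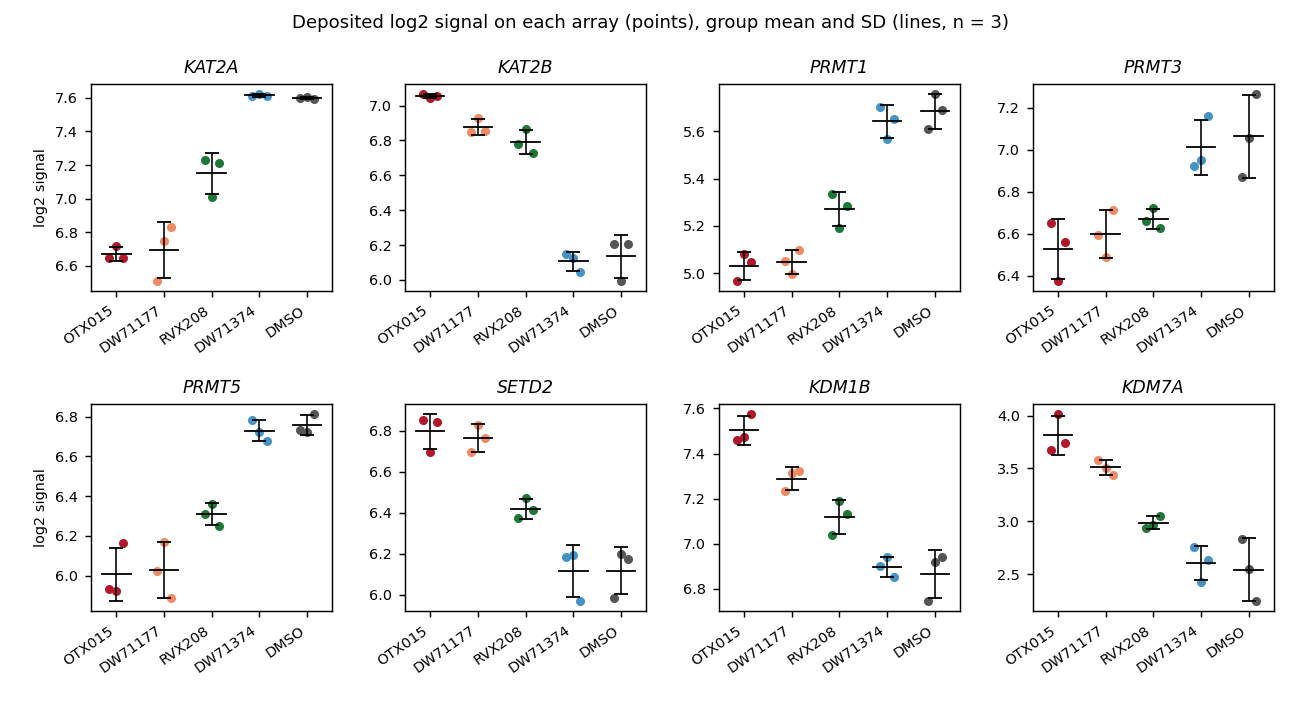
Log2 signal of 8 enzymes, with groups from left to right OTX015, DW71177, RVX208, DW71374 and DMSO. Points are single arrays, and lines give the group mean and SD (n = 3). KAT2A and PRMT5 step down and KAT2B steps up in the first 3 groups, and the DW71374 points sit with the DMSO points.

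Most lysine demethylases that passed the test were higher. With OTX015 10 of 18 rose and 1 fell, with DW71177 7 rose and none fell, with RVX208 1 rose, and with DW71374 none was called. The rises were 55.6% of the class with OTX015 and 38.9% with DW71177, beside 11.2% and 9.95% of all genes. The single fall with OTX015 was 5.56%, beside 14.5% of all genes, and the single rise with RVX208 was 5.56%, near the 3.41% of all genes. KDM7A, which removes methyl groups from lysines of histone H3 in silent chromatin, read 3.68, 4.02 and 3.74 with OTX015, 3.58, 3.51 and 3.44 with DW71177, 2.93, 2.97 and 3.05 with RVX208 and 2.75, 2.43 and 2.63 with DW71374, against 2.84, 2.55 and 2.24 with DMSO. All 9 arrays of OTX015, DW71177 and RVX208 lay above the DMSO arrays, although every group sat under a level of 5. KDM7A was 2.41-fold higher with OTX015 (log2 1.27 ± 0.13, limma adjusted p = 6.4e-06) and 1.96-fold higher with DW71177 (log2 0.97 ± 0.13, adjusted p = 0.00012), both lower bounds at best. With RVX208 it was 0.44 ± 0.13 and was not called (limma adjusted p = 0.065).

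KDM1B (LSD2), a flavin-dependent demethylase of H3K4 active over gene bodies, read 7.46, 7.47 and 7.58 with OTX015, 7.23, 7.31 and 7.32 with DW71177, 7.04, 7.19 and 7.13 with RVX208 and 6.90, 6.94 and 6.85 with DW71374, against 6.74, 6.92 and 6.94 with DMSO. Arrays of the first 3 compounds lay above DMSO and those of DW71374 did not. Its log2 difference was 0.64 ± 0.067 with OTX015 (limma adjusted p = 7.2e-06), 0.42 ± 0.067 with DW71177 (adjusted p = 0.00042) and 0.25 ± 0.067 with RVX208 (adjusted p = 0.04). Its paralog KDM1A (LSD1), the demethylase under study as a target in acute myeloid leukemia, read 8.50, 8.52 and 8.54 with OTX015, 8.49, 8.55 and 8.48 with DW71177, 8.54, 8.55 and 8.51 with RVX208 and 8.59, 8.58 and 8.57 with DW71374, against 8.59, 8.63 and 8.62 with DMSO. Each compound's arrays lay at or below the lowest DMSO array, by small margins. KDM1A was not called with any compound, and with OTX015 the difference was -0.098 (95% interval -0.20 to 0.0038, limma adjusted p = 0.17).

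KDM4B, a demethylase of H3K9 and H3K36, read 6.50, 6.56 and 6.33 with OTX015, 6.22, 6.37 and 6.35 with DW71177, 6.22, 6.12 and 6.24 with RVX208 and 5.98, 5.96 and 5.92 with DW71374, against 5.84, 6.14 and 5.92 with DMSO. OTX015 and DW71177 arrays lay above the DMSO arrays, and the others overlapped them. KDM4B rose by 0.49 with OTX015 (limma adjusted p = 0.00047) and 0.35 with DW71177 (adjusted p = 0.0086). On the DW71177 and DMSO arrays alone KDM4B and KDM4C were no longer called (limma adjusted p = 0.053 and 0.051). With OTX015 the rises also took in KDM3A (0.40), which acts on H3K9, KDM4A (0.27) and KDM4C (0.29). They took in KDM5A (0.22) and KDM5B (0.47), which act on H3K4, KDM6A (UTX, 0.47), which acts on H3K27, and KDM2A (0.18), which acts on H3K36. KDM2B, a partner of a variant polycomb complex, fell by 0.18 (limma adjusted p = 0.037). After quantile normalization its difference was -0.15 and was not called (limma adjusted p = 0.11), which left 10 demethylases higher with OTX015 and 0 lower. Among the rises, KDM3A, KDM4C, KDM5B and KDM6A also rose with DW71177, by 0.34, 0.35, 0.39 and 0.38.

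Paralogs within the demethylases did not all pass the test together. KDM6A rose with OTX015, whereas its paralog KDM6B (JMJD3) differed by -0.080 and was not called (limma adjusted p = 0.41). KDM3B (0.022) and KDM5C (0.062) were not called beside the rises of KDM3A, KDM5A and KDM5B, and the differences between paralogs were not tested. KDM4D (-0.089) and KDM4E (-0.21) were dim in all groups and KDM8 differed by -0.17, none of them called.

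Of 13 lysine methyltransferases 2 rose and 5 fell with OTX015, 2 rose and 1 fell with DW71177, 1 rose with RVX208 and none was called with DW71374. The share called was 53.8% with OTX015, beside 25.7% of all genes. It was 23.1% with DW71177 and 7.69% with RVX208, beside 19.8% and 6.52% of all genes. All 13 lay above the median gene level. In a separate fit of all genes above that level, 52.4% were called with OTX015, 44.9% with DW71177 and 21% with RVX208. That fit has an adjustment of its own and the class was not counted in it, so its shares are not matched to those of the class. SETD2, the enzyme that trimethylates H3K36 behind elongating polymerase, read 6.85, 6.70 and 6.84 with OTX015, 6.69, 6.83 and 6.76 with DW71177, 6.37, 6.47 and 6.42 with RVX208 and 6.18, 6.19 and 5.97 with DW71374, against 5.99, 6.20 and 6.17 with DMSO. OTX015, DW71177 and RVX208 arrays lay above all DMSO arrays, and DW71374 overlapped them. SETD2 was 1.60-fold higher with OTX015 (log2 0.68 ± 0.080, limma adjusted p = 1.9e-05), 1.56-fold higher with DW71177 (log2 0.64 ± 0.080, adjusted p = 5.2e-05) and 1.23-fold higher with RVX208 (log2 0.30 ± 0.080, adjusted p = 0.038). The RVX208 call of SETD2 was lost under 8 of 12 alternatives, among them the replicate number as a block (limma adjusted p = 0.058), the arrays of the compared groups alone (adjusted p = 0.08) and each RVX208 or DMSO array left out in turn.

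KMT2C, which monomethylates H3K4 at enhancers, read 9.33, 9.18 and 9.34 with OTX015, 9.18, 9.22 and 9.15 with DW71177, 8.95, 8.96 and 8.98 with RVX208 and 8.76, 8.83 and 8.86 with DW71374, against 8.80, 8.80 and 8.78 with DMSO. The groups of OTX015, DW71177 and RVX208 stood clear of DMSO. KMT2C rose by 0.49 with OTX015 (limma adjusted p = 1.6e-05) and 0.39 with DW71177 (adjusted p = 0.00019), and with RVX208 the difference of 0.17 was not called (adjusted p = 0.09). Its paralogs KMT2D (-0.058) and KMT2B (-0.071) were not called with OTX015.

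The falls with OTX015 were smaller. They were SETD3 (-0.29), an actin histidine methyltransferase, KMT5A (-0.25) and KMT5B (-0.22), which methylate H4K20, SETD5 (-0.23) and SETD1A (-0.19), which methylates H3K4. After quantile normalization 2 methyltransferases fell rather than 5, with KMT5B, SETD1A and SETD5 no longer called (limma adjusted p = 0.067, 0.17 and 0.057). SETD3 also fell with DW71177 (-0.24, limma adjusted p = 0.0051). KMT5C, SETD6, SETD7 and SETD9 were not called with any compound.

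Of 6 DNA methylation enzymes 3 were called with OTX015 (50%, beside 25.7% of all genes), 2 with DW71177 (33.3%, beside 19.8%) and none with RVX208 or DW71374. The dioxygenases TET1 and TET2, which oxidise methylcytosine, went opposite ways with OTX015 and DW71177. TET1 read 4.25, 4.26 and 4.59 with OTX015, 4.42, 4.24 and 4.26 with DW71177, 4.76, 4.72 and 4.86 with RVX208 and 5.30, 5.02 and 5.01 with DW71374, against 4.97, 5.10 and 4.95 with DMSO. OTX015, DW71177 and RVX208 arrays lay below the DMSO arrays, and the OTX015 and DW71177 group means were under a level of 5. TET1 was 1.56-fold lower with OTX015 (log2 -0.64 ± 0.10, limma adjusted p = 0.00028) and 1.63-fold lower with DW71177 (log2 -0.70 ± 0.10, adjusted p = 2e-04), both lower bounds at best. Its second, dimmer feature, which was not used, differed by -0.21 with OTX015 and -0.32 with DW71177. With RVX208 that feature differed by -0.47, beside -0.23 for the feature used, which was not called.

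TET2, often mutated in myeloid malignancy, read 7.47, 7.32 and 7.39 with OTX015, 7.27, 7.54 and 7.16 with DW71177, 7.11, 7.25 and 7.30 with RVX208 and 6.94, 7.07 and 7.10 with DW71374, against 6.96, 7.02 and 6.98 with DMSO. OTX015, DW71177 and RVX208 arrays lay above DMSO. TET2 rose by 0.41 with OTX015 (limma adjusted p = 0.0035) and 0.34 with DW71177 (adjusted p = 0.015), and with RVX208 the difference of 0.23 was not called (adjusted p = 0.15).

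DNMT1, the maintenance methyltransferase, read 9.53, 9.45 and 9.58 with OTX015, 9.60, 9.62 and 9.62 with DW71177, 9.68, 9.64 and 9.65 with RVX208 and 9.64, 9.65 and 9.69 with DW71374, against 9.69, 9.72 and 9.72 with DMSO. All 12 compound arrays lay below every DMSO array, the highest DW71374 array by less than the second decimal shows. DNMT1 fell by 0.19 with OTX015 (limma adjusted p = 0.011) and was not called with DW71177 (-0.098, adjusted p = 0.23). The de novo enzyme DNMT3A read 5.69, 5.49 and 5.66 with OTX015, 5.54, 5.41 and 5.47 with DW71177, 5.50, 5.49 and 5.37 with RVX208 and 5.29, 5.53 and 5.57 with DW71374, against 5.41, 5.49 and 5.32 with DMSO. All its groups overlapped DMSO, and the OTX015 difference of 0.20 was not called (limma adjusted p = 0.1). DNMT3B read 5.32, 5.61 and 5.05 with OTX015, 5.18, 5.47 and 5.33 with DW71177, 4.98, 5.21 and 5.06 with RVX208 and 5.17, 5.35 and 5.10 with DW71374, against 5.35, 5.19 and 5.24 with DMSO. Its groups overlapped too, with 0.063 for OTX015 (95% interval -0.21 to 0.33). DNMT3L, a catalytically inactive cofactor, was not called, and its 3 RVX208 arrays held the same deposited value.

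Of 11 zinc-dependent deacetylases 2 rose and 1 fell with OTX015, 3 rose and 1 fell with DW71177, and none was called with RVX208 or DW71374. The share called was 27.3% with OTX015, near the 25.7% of all genes, and 36.4% with DW71177, beside 19.8% of all genes. HDAC1, a class I catalytic subunit of several corepressor complexes, read 8.70, 8.67 and 8.72 with OTX015, 8.74, 8.77 and 8.76 with DW71177, 8.70, 8.70 and 8.64 with RVX208 and 8.55, 8.63 and 8.64 with DW71374, against 8.67, 8.65 and 8.57 with DMSO. The OTX015 and DW71177 arrays lay at or just above the highest DMSO array, and HDAC1 was not called (0.068 with OTX015, limma adjusted p = 0.42, and 0.13 with DW71177, adjusted p = 0.11). Its partner paralog HDAC2, dim on these arrays, averaged 4.32 ± 0.11 with OTX015 and 4.36 ± 0.085 with DW71177, against 4.70 ± 0.12 with DMSO (SD, n = 3 each). HDAC2 fell by 0.39 with OTX015 (limma adjusted p = 0.0024) and 0.34 with DW71177 (adjusted p = 0.0069), lower bounds at best, and its dimmer second feature differed by -0.23 with OTX015.

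HDAC5, a class IIa enzyme, rose by 0.21 with OTX015 and 0.23 with DW71177 (limma adjusted p = 0.027 and 0.023). HDAC10, a polyamine deacetylase, rose by 0.30 with OTX015 (limma adjusted p = 0.012). HDAC3, the catalytic subunit of the NCoR complexes, rose by 0.30 with DW71177 (limma adjusted p = 0.008) and HDAC7 by 0.20 (adjusted p = 0.031), while with OTX015 they differed by 0.20 and 0.13 and were not called. HDAC4, HDAC6, HDAC8, HDAC9 and HDAC11 were not called with any compound. The HDAC9 value was the same on all 3 DW71177 arrays. The second, dimmer feature of HDAC4 differed by 0.37 with DW71177, beside -0.0080 for the feature used.

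SIRT1 and SIRT2, deacetylases that need NAD+, rose with OTX015 and DW71177, and the other 5 sirtuins were not called with any compound. Called sirtuins were 28.6% of the 7 with each, beside 25.7% of all genes with OTX015 and 19.8% with DW71177. SIRT1, the nuclear enzyme that deacetylates p53 and histones, read 7.97, 7.93 and 7.94 with OTX015, 7.78, 7.94 and 7.66 with DW71177, 7.66, 7.67 and 7.66 with RVX208 and 7.35, 7.15 and 7.23 with DW71374, against 7.35, 7.40 and 7.48 with DMSO. All arrays of OTX015, DW71177 and RVX208 lay above the DMSO arrays. SIRT1 rose by 0.54 with OTX015 (limma adjusted p = 7.7e-05) and 0.38 with DW71177 (adjusted p = 0.002), and the RVX208 difference was 0.25 (adjusted p = 0.059). SIRT2, a mainly cytosolic tubulin deacetylase, rose by 0.42 and 0.31 with OTX015 and DW71177 (limma adjusted p = 0.0012 and 0.013). The mitochondrial SIRT3 (0.20), SIRT4 (0.074) and SIRT5 (-0.21) and the nuclear SIRT6 (-0.23) and SIRT7 (0.18) were not called with OTX015. After quantile normalization SIRT3 and SIRT7 were also called with OTX015, which made 4 of 7.

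With DW71177, the test compound given at the dose of OTX015, 26 of the 70 enzymes were called, 17 higher and 9 lower, where 19.8% of all genes were called (9.95% higher and 9.88% lower). Among genes above the median level 31 of 59 were called (52.5%), beside 44.9% of all such genes. DW71177 and DMSO arrays did not overlap for 40 enzymes (24 higher, 16 lower), where 32.6% of all genes did not. The median difference was 0.063, beside -0.0059 over all genes. This comparison and that of OTX015 use the same 3 DMSO arrays. DNMT1, HDAC10, KDM2A, KDM2B, KDM4A, KDM5A, KMT5A, KMT5B, SETD1A and SETD5 were called with OTX015 and not with DW71177, and HDAC3 and HDAC7 with DW71177 and not with OTX015, although the difference between the compounds was called for none of them.

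At a matched 300 nM, DW71177 was set directly against OTX015 for all 70 enzymes, 1 of the 6 comparisons made. None was called by limma at adjusted p under 0.05, where 1.26% of all genes were (1.07% higher and 0.182% lower), and 8 had an unadjusted p under 0.05, where 13.7% of all genes did. The 8 were KMT5B (0.27, 95% interval 0.12 to 0.42, limma adjusted p = 0.083), KDM1B (-0.21), KDM8 (0.32), PRMT6 (0.25), KAT5 (0.26), KAT2B (-0.18), SETD7 (0.18) and KDM7A (-0.30). Among genes above the median level KMT5B and KDM1B were called, 2 of 59 enzymes, beside 7.62% of all such genes, and a trended, robust fit called KMT5B. DW71177 and OTX015 arrays did not overlap for 15 of the 70 (7 higher, 8 lower), where 15.5% of all genes did not. Among the 8, every DW71177 array lay below every OTX015 array for KDM1B, KAT2B and KDM7A. For KMT5B, KDM8, PRMT6 and KAT5 every DW71177 array lay above, and for SETD7 the arrays overlapped.

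The 95% intervals, taken gene by gene, show how precisely each difference was estimated from the spread of these arrays alone. The interval of DW71177 minus OTX015 stayed inside 1.5-fold in both directions for 69 of the 70 enzymes, where 13838 of all 14812 genes did. It stayed inside 1.2-fold for 40 enzymes, where 4866 of all genes did. The exception at 1.5-fold was KDM7A (-0.59 to -0.017). For KAT2A, PRMT5 and SETD2, each called against DMSO with both compounds, the intervals were -0.15 to 0.20 for KAT2A, -0.15 to 0.20 for PRMT5 and -0.21 to 0.14 for SETD2. A p above the threshold does not show that the compounds act alike.

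**Figure D4:**
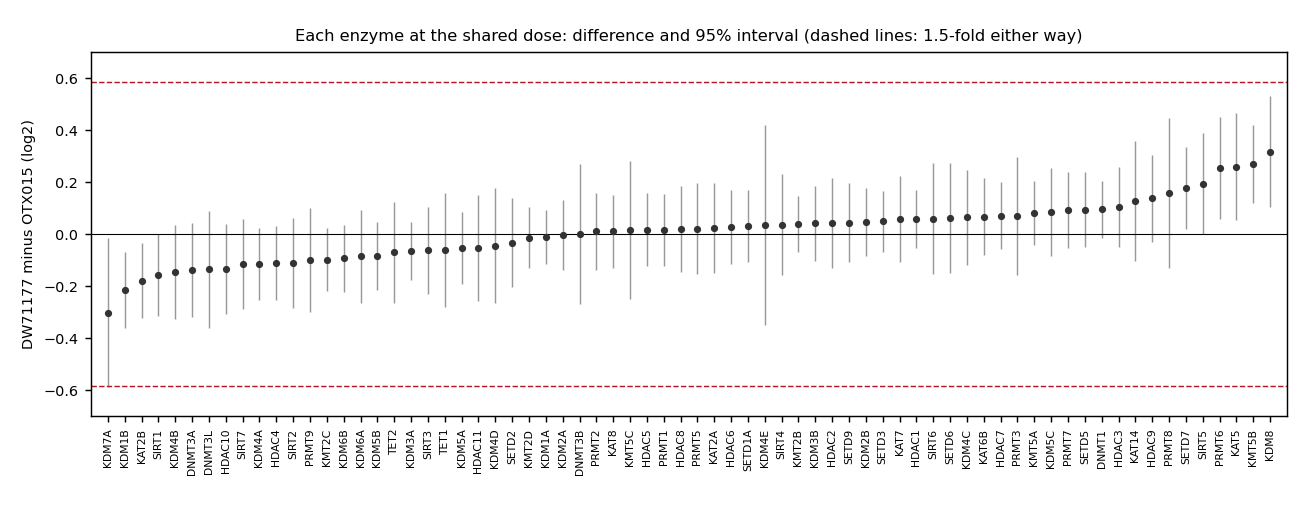
DW71177 minus OTX015 on the log2 scale for the 70 enzymes, ordered by the difference, with 95% confidence intervals from limma; dashed lines mark 1.5-fold. No interval belongs to a called gene, and the KDM7A interval is the one that crosses a dashed line.

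RVX208 was given at 5 uM, so its values stand beside those of the other compounds without a comparison. With RVX208 7 of 70 enzymes were called, 3 higher and 4 lower, where 6.52% of all genes were called (3.41% higher and 3.11% lower). The 3 were KAT2B, SETD2 and KDM1B and the 4 were KAT2A, PRMT1, PRMT3 and PRMT5. The DMSO arrays are those of the other comparisons, and the values beside each other were 0.65 with RVX208, 0.74 with DW71177 and 0.92 with OTX015 for KAT2B, and -0.45, -0.90 and -0.93 in that order for KAT2A. Among genes above the median level 14 of 59 were called (23.7%), beside 21% of all such genes, and a trended, robust fit called 12. RVX208 and DMSO arrays did not overlap for 27 of the 70 (15 higher, 12 lower), where 26% of all genes did not. Quantile normalization called 5 higher and 4 lower, 55.6% higher against 42.9% as deposited. Leaving out DMSO replicate 3, RVX208 replicate 2 or RVX208 replicate 3 left 4 called. A fit on the RVX208 and DMSO arrays alone also called 4. With the mean of all features that name a gene 8 were called, 3 higher and 5 lower.

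With DW71374 at 300 nM none of the 70 enzymes was called by limma, where 0% of all genes were, and 3 had an unadjusted p under 0.05, where 4.63% of all genes did. These were SIRT1 (-0.17), HDAC3 (-0.17) and DNMT3L (-0.26), each with a limma adjusted p of 0.99. DW71374 and DMSO arrays did not overlap for 8 of the 70 (2 higher, 6 lower), where 10.7% of all genes did not. All 70 of the 95% intervals stayed inside 1.5-fold of DMSO and 52 inside 1.2-fold, where 14025 and 6240 of all 14812 genes did. The intervals were -0.16 to 0.19 for KAT2A, -0.17 to 0.12 for KAT2B and -0.20 to 0.15 for PRMT5.

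DW71177 and DW71374, both at 300 nM, were then compared with each other, so the differences use no DMSO array. The residual spread behind the tests still came from the fit of all arrays, DMSO among them. Of the 70 enzymes 25 were called, 17 higher and 8 lower with DW71177, where 19.5% of all genes were called (9.98% higher and 9.51% lower). Among genes above the median level 28 of 59 were called (47.5%), beside 42.9% of all such genes. Arrays did not overlap for 40 (24 higher, 16 lower), where 31.6% of all genes did not. KAT2A was -0.92 ± 0.080 (limma adjusted p = 2.7e-06), KAT2B 0.77 ± 0.067 (adjusted p = 2.7e-06) and TET1 -0.81 ± 0.10 (adjusted p = 6.5e-05). HDAC3 was 0.47 ± 0.071 (limma adjusted p = 0.00028) and SIRT1 0.55 ± 0.074 (adjusted p = 0.00011). KDM6B, called in no comparison with DMSO, was lower by 0.22 (limma adjusted p = 0.019).

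The differences of DW71177 from DW71374 share no array with those of OTX015 from DMSO, although the tests of both came from the same fit. In both comparisons, 23 enzymes were called in the same direction, 16 higher and 7 lower, and none in opposite directions. The 23 were 92% of the 25 called between the DW compounds and 67.6% of the 34 called with OTX015, and over all genes the shares were 82.8% and 62.9%. Across the 70 genes the differences of the comparisons correlated at r = 0.93 (rho = 0.89), and across all genes at r = 0.80 (rho = 0.63). Genes are not independent replicates, and the points share the array design and its normalization. The calls also share the residual spread of each gene, which the fit took from all arrays. A gene of low spread is thus favoured in both comparisons, and the shared calls are not from separate data. On the arrays of the compared groups alone, 17 enzymes were called between the DW compounds and 27 with OTX015.

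**Figure D5:**
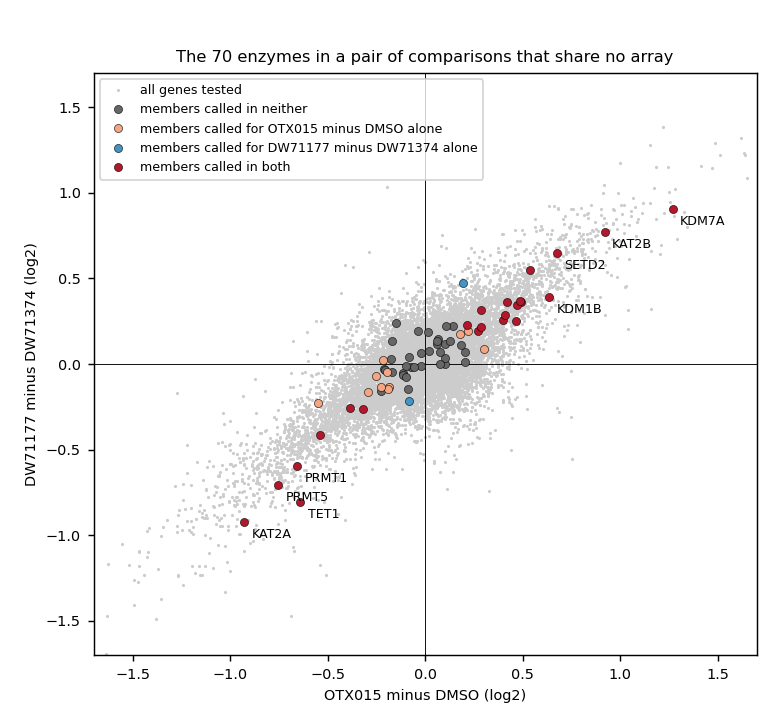
Log2 difference of DW71177 minus DW71374 against that of OTX015 minus DMSO, which share no array; enzymes are coloured by whether they were called in both, and all genes are grey. The axes stop at 1.7, which leaves 27 genes outside. The 23 enzymes called in both have the same sign on both axes.

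Leaving out 1 array ended some calls of genes with small differences. With OTX015 the calls lost, with the array left out and the highest limma adjusted p, were KDM2A (without OTX015 replicate 1 or 3 or DMSO replicate 1, 2 or 3, adjusted p = 0.18), KDM2B (without OTX015 replicate 1 or 2 or DMSO replicate 1, 2 or 3, adjusted p = 0.14), SETD1A (without OTX015 replicate 1, 2 or 3 or DMSO replicate 2 or 3, adjusted p = 0.15) and KMT5B (without OTX015 replicate 2 or 3 or DMSO replicate 1 or 3, adjusted p = 0.13). The calls of HDAC5 (without OTX015 replicate 1 or 2 or DMSO replicate 3, adjusted p = 0.1), KDM4C (without OTX015 replicate 2 or 3 or DMSO replicate 1, adjusted p = 0.085) and KDM5A (without OTX015 replicate 3 or DMSO replicate 1 or 3, adjusted p = 0.089) were lost in the same way, as were those of HDAC10 (without OTX015 replicate 3 or DMSO replicate 3, adjusted p = 0.062), SETD5 (without OTX015 replicate 2 or DMSO replicate 3, adjusted p = 0.097) and DNMT1 (without OTX015 replicate 2, adjusted p = 0.05). With DW71177 the calls lost were HDAC7 (without DW71177 replicate 2 or 3 or DMSO replicate 1 or 3, adjusted p = 0.12), PRMT6 (without DW71177 replicate 1 or 3 or DMSO replicate 1 or 2, adjusted p = 0.12) and PRMT7 (without DW71177 replicate 1 or 3 or DMSO replicate 2 or 3, adjusted p = 0.14), and HDAC5 (without DW71177 replicate 1 or 3 or DMSO replicate 3, adjusted p = 0.09), TET2 (without DW71177 replicate 2 or DMSO replicate 1, adjusted p = 0.061) and SIRT2 (without DW71177 replicate 1, adjusted p = 0.063). With RVX208 the calls lost were KDM1B (without RVX208 replicate 2 or 3 or DMSO replicate 1, 2 or 3, adjusted p = 0.16) and PRMT3 (without RVX208 replicate 1, 2 or 3 or DMSO replicate 2 or 3, adjusted p = 0.16) and SETD2 (without any of the 3 RVX208 or 3 DMSO arrays, limma adjusted p up to 0.15). Between DW71177 and DW71374, KDM6B was lost without DW71177 replicate 2 or DW71374 replicate 1 (limma adjusted p up to 0.083). Other calls of that comparison lost with 1 array left out were KDM4A, KDM6A, PRMT2, TET2 and HDAC2 (limma adjusted p up to 0.17, 0.16, 0.16, 0.15 and 0.12). So were those of HDAC5, KDM4C, PRMT3 and PRMT7 (limma adjusted p up to 0.11, 0.085, 0.059 and 0.058). All of these except KDM6B were among the enzymes called with OTX015 too. A fit on the arrays of the compared groups alone ended the calls of DNMT1, HDAC5, KDM2A, KDM2B, KMT5B, SETD1A and SETD5 with OTX015. It ended those of HDAC5, HDAC7, KDM4B, KDM4C, PRMT6, PRMT7, SIRT2 and TET2 with DW71177, and of KDM1B, PRMT3 and SETD2 with RVX208. Between DW71177 and DW71374 it left 17 of the 25 calls, ending those of HDAC5, KDM4A, KDM4C, KDM6A, KDM6B, PRMT2, PRMT7 and TET2. KAT2A, KAT2B, PRMT1 and PRMT5 were called with OTX015, DW71177 and RVX208 under every alternative run.

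Other chromatin genes were taken from lists that the symbol rule does not reach. Of 92 listed, 71 were measured, and 11 rose and 22 fell with OTX015, 12 rose and 18 fell with DW71177, 6 rose and 3 fell with RVX208, and none was called with DW71374. The share called was 46.5% with OTX015, 42.3% with DW71177 and 12.7% with RVX208, beside 25.7%, 19.8% and 6.52% of all genes. In the separate fit of all genes above the median level it was 52.4% with OTX015, 44.9% with DW71177 and 21% with RVX208. The listed genes were not counted in that fit, which has an adjustment of its own. The other lysine and arginine methyltransferases fell in 6 of 13 cases with OTX015 and rose in none (46.2% called). They included SMYD5 (-1.12), SUV39H1 (-1.02), which trimethylates H3K9 in heterochromatin, and CARM1 (-0.71), an arginine methyltransferase whose symbol lies outside the PRMT series (limma adjusted p = 2.9e-07, 3e-07 and 6.6e-07). SMYD5 and SUV39H1 were higher with DW71177 than with OTX015, by 0.42 and 0.47 (limma adjusted p = 0.027 and 0.01), and so was the ATAC subunit TADA2A, by 0.35 (adjusted p = 0.026).

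Among partners of DNA methylation 3 of 7 fell with OTX015: UHRF1, which recruits DNMT1 to newly replicated DNA, by 0.98, PCNA by 0.33 and TDG, which excises oxidised methylcytosine, by 0.23 (limma adjusted p = 3.4e-06, 0.00026 and 0.015). Of 9 partners of the KMT2 complexes and menin 2 rose and 5 fell, with PAXIP1 at -0.67, HCFC1 at -0.40 and PSIP1 (LEDGF) at 0.41. Of 10 polycomb genes 1 rose and 3 fell, with PHF19 at -0.85, RBBP4 at -0.39 and EZH1 at 0.43. Of 13 other acetyltransferases and subunits 4 rose and 2 fell, the rises including the coactivators NCOA2 (0.64), NCOA1 (0.49) and EP300 (0.32). Of 12 deacetylase complex genes 3 rose and 2 fell, with GATAD2B at 0.66, RCOR3 at 0.64 and TBL1XR1 at -0.61. Of 7 other demethylases 1 rose, JMJD1C (0.45), and 1 fell, RIOX2 (-0.40). The called shares of these 6 lists with OTX015 lay between 28.6% (the other demethylases) and 77.8% (the KMT2 and menin partners), beside 25.7% of all genes, of which 11.2% rose and 14.5% fell. That of the other demethylases stood near the share of all genes, and lists of 7 to 13 genes give coarse shares. The medians of these lists lay between -0.19 and 0.048 with OTX015, beside -0.0038 over all genes.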

How the data were processed

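The table holds log2 signals that the authors deposited for 44629 features of an Affymetrix Human 2.0 ST array, and the log2 scale was inferred from the values. Array medians were near equal, as they are after normalization between arrays, so every difference is relative to the rest of its array. For software, background correction, normalization method and build, the entry is "not given in the sources used here". Features were named through the platform annotation, with 15835 naming 1 gene, 0 several and 28794 none, and the feature of highest mean over the 15 arrays stood for each of 14812 genes. HDAC2, HDAC4 and TET1 had 2 features.

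Groups were compared with limma 3.58.1 in R 4.3.3 (lmFit, contrasts.fit and eBayes, default settings, no level filter) in 1 fit of 15 arrays with 10 residual degrees of freedom. Tests were two-sided, with Benjamini-Hochberg adjustment over all 14812 genes and a threshold of 0.05, and the code was tested on simulated data. Values after ± are standard errors of the fit unless given as SD, and intervals are 95% intervals of the fit. Arrays give no counts, so their number limits the precision.

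The members and lists were chosen with earlier results of these data known. Values on every array are given for called enzymes with the largest differences (12 for OTX015, 10 for DW71177 and 8 for RVX208, of which 7 were called) and for 9 enzymes chosen for their role whatever their result, KMT2A not analysed here among them. Up to 3 called genes of smallest p were named per partner list. Promoters came from RefSeq. Alternatives were another feature rule, quantile normalization, a level filter, a trended robust fit, a replicate block, the compared groups alone and leaving out each array.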

Additional observations from a re-analysis of the deposited data

How the results depend on the processing

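No called difference reversed under the alternatives run. With RVX208 the 7 calls became 14 among genes above the median level, 12 with a trended, robust fit and 8 with the mean of all features. They became 4 on the arrays of the compared groups alone, and 4 to 6 with 1 array left out. Between DW71177 and OTX015 the 0 calls became 2 among genes above the median level and 1 with the trended, robust fit. The share of all genes called was 1.26% in the main fit and 3.36% in the trended, robust fit. It was 7.62% of the genes above the median level, and the cause of either change was not tested. Calls held under every alternative for 24 of 34 enzymes with OTX015, 18 of 26 with DW71177, 4 of 7 with RVX208 and 15 of 25 between DW71177 and DW71374. Leaving out 1 array gave 27 to 31 calls with OTX015, 22 to 24 with DW71177 and 17 to 24 between the DW compounds. The labels do not say whether a replicate number marks a shared batch, and the main fit used no pairing. Deviations of same-numbered arrays correlated at -0.087 to 0.098 over 30 pairs of arrays, beside -0.095 to 0.14 over 60 pairs of different number. Of 15 arrays 7 correlated best with an array of their own number. These values do not settle whether the numbers pair the arrays. With the replicate number as a block, the counts were 33 with OTX015, 26 with DW71177, 6 with RVX208, 0 with DW71374, 0 between DW71177 and OTX015 and 23 between DW71177 and DW71374. Dim signal limits KDM7A, TET1, HDAC2 and other enzymes near or below a level of 5, whose folds may be understated.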

Other observations

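Noncoding genes named after the enzymes were outside the rule and were looked at after the annotation had been seen. KDM7A-DT, a transcript annotated beside KDM7A, averaged 3.50 ± 0.082 with DW71177, against 3.19 ± 0.078 with DMSO (SD, n = 3 each), a log2 difference of 0.31 ± 0.10 (limma adjusted p = 0.043) at a level too dim to give more than a lower bound. With OTX015, where KDM7A itself differed most, KDM7A-DT differed by 0.040 ± 0.10 (limma adjusted p = 0.85). KDM4A-AS1 and KMT2E-AS1 were not called with any compound. With OTX015 they differed by 0.23 ± 0.091 and 0.24 ± 0.092 (limma adjusted p = 0.092 and 0.074). Whether these features are free of signal from the neighbouring enzyme was not tested.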
